A study of Mus musculus with 30 samples.

Results

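The metallothioneins Mt1, Mt2, Mt3 and Mt4 were followed through a retinoic acid time course of KH2 cells, a mouse embryonic stem cell line, on 30 Affymetrix expression arrays. The genes were taken by symbol, from probe sets annotated with exactly 1 of the 4 names. This gave 5 of the 34945 probe sets with a single gene symbol, and 4 of the 18193 genes. Mt4 was chosen by its measured values, since its log2 intensity falls strongly from 8 h to 72 h over all 30 arrays, so its values over time are given as a description, with no test. Arrays were made at 8 h, 12 h, 16 h, 24 h, 36 h, 48 h, 60 h and 72 h, 3 at each time (lettered A to C) except at 12 h and 24 h, which have 6 each (A to F). The 8 h arrays are labelled as the baseline and all later ones as treated with retinoic acid, which the labels give at 0.3 uM. The protocol text that goes with the 8 h arrays names retinoic acid too, so it is unclear whether the 8 h cells had been treated, and changes from 8 h are changes from that time, not from a known untreated state. All cells came from 1 stem cell line grown on feeder fibroblasts and were replated on gelatin for 30 minutes before lysis, and the labels describe the cells taken for RNA in 2 ways, as those that adhered or as those pelleted from the medium. Nothing in the labels says that the lettered arrays of a time came from separate cultures, so the p-values measure the spread between these samples, which may be technical.

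Metallothioneins are small, cysteine-rich proteins of the cytoplasm that bind zinc and copper and buffer their free levels. Mt1 and Mt2 are made in most tissues and are induced by metals, by glucocorticoids and by oxidative stress, Mt3 is known mainly from brain, and Mt4 mainly from stratified squamous epithelium such as that of the tongue and skin. Transcription of Mt1 and Mt2 is driven by Mtf1, a zinc finger factor that senses zinc and binds metal response elements in their promoters.

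The 4 genes lie side by side on chromosome 8, in the order Mt4, Mt3, Mt2 and Mt1, within 43.1 kb (chr8:94137204-94180327, GRCm38.p6, RefSeq annotation). All 4 matched the RefSeq promoter windows, which run from 250 bases before to 50 after an annotated start on the plus strand of each. The windows were searched on both strands for the metal response element core, spelled TGCACNC or TGCGCNC. The stretches with a match before the start of the window's transcript are shown so that the matched letters can be compared between members, with each match in capitals. For Mt1 only the 30 bases around the match are shown (chr8:94179055-94179084), since another transcript model of Mt1 begins inside that window, at 94178883, so the match lies before the start of 1 model and after that of the other. For Mt2 (chr8:94172368-94172617) and Mt4 (chr8:94136954-94137203) the 250 bases before the start are shown.
Mt1: cggtcccgctgTGCACACtggcgctccagg
Mt2: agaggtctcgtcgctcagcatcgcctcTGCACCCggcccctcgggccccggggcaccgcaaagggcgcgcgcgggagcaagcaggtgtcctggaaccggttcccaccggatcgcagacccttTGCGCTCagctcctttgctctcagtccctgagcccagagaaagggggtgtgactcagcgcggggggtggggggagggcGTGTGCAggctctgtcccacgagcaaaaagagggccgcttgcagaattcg
Mt4: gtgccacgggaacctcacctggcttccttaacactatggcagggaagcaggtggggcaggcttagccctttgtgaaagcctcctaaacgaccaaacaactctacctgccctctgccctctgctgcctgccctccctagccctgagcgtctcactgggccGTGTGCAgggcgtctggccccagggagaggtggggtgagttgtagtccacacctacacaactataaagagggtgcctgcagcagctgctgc

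The Mt2 window held 4 matches, 3 of them in the stretch shown, and 0.517% of all 32851 windows of the same length held as many or more. The Mt1 window held 3 matches, 1 of them in the stretch shown and the others after the start of the window's transcript, and 1.97% of windows held as many or more. Mt3 and Mt4 held 1 each, where 25.7% of windows held at least 1, and the Mt3 match lay after the start. The antioxidant response element, spelled TGACNNNGC, was found once in the Mt2 window and in none of the other members' windows, against 12.4% of all windows. The Mt1 window covers little of the sequence before the start of the other Mt1 model, so that sequence was barely searched. The GC box GGGCGG occurred 3 times in the Mt1 window, a number reached by 10.7% of windows, and in none of the other members' windows. These are matches of letters, not shown sites.

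The arrays fall into 2 sets by their spike-in controls, and the labels do not mention them. The difference between the spike-in probe sets BioDn 5' and BioC 5' was 0.99 to 1.07 on the 12 arrays of set 1 (8 h, 16 h, and letters A to C of 12 h and 24 h). It was 1.34 to 1.63 on the 18 arrays of set 2 (letters D to F of 12 h and 24 h, and all arrays from 36 h on). This spike-in difference was picked with earlier results of these data known. The B2 repeat control read 14.60 to 14.75 in set 1 and 14.95 to 15.07 in set 2, with no overlap. The control for the 5' end of 18S ribosomal RNA read 9.03 to 11.12 in set 1 and 7.99 to 9.17 in set 2, with overlap. Tests therefore stay within a set or compare the letters at a matched time. Where levels of both sets stand side by side, as descriptions, time and array set cannot be told apart. Of the markers of the labelled stem cells, Pou5f1 had group means between 10.69 and 13.40, and the mean of 20 pluripotency genes was 11.93 at 8 h and 11.26 at 24 h A to C in set 1, and 11.65 at 12 h D to F and 10.45 at 72 h in set 2. The mean of 20 embryonic fibroblast genes was 7.78 and 8.20 at the same points of set 1, and 8.34 and 10.40 at those of set 2. In bulk RNA fewer cells of a type and less RNA per cell cannot be told apart, in any of the results that follow.

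Mt4 was high in array set 1, where it was highest at 24 h, and low in set 2, where it was lowest at 72 h. At 8 h its log2 intensity was 9.14, 8.91 and 9.12 on arrays A, B and C. At 12 h A to C it read 9.58, 9.42 and 9.67, at 16 h 9.33, 9.26 and 9.35, and at 24 h A to C 10.03, 9.76 and 10.03. All 3 arrays at 24 h A to C lay above all arrays of the other times in set 1. From 9.05 ± 0.13 (SD, n = 3) at 8 h to 9.94 ± 0.16 (SD, n = 3) at 24 h A to C, the difference was 0.88.

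In set 2, Mt4 read 7.58, 7.83 and 7.90 at 12 h D to F, and 7.40, 7.96 and 7.48 at 24 h D to F. It then read 7.32, 7.79 and 7.23 at 36 h and 6.44, 6.95 and 6.66 at 48 h. The 36 h arrays lay within the range of the earlier set 2 arrays except for the lower 2, and the 48 h arrays lay below all arrays from 12 h to 36 h. At 60 h it read 7.77, 7.15 and 6.34, the widest spread of any group (SD 0.72), and at 72 h 5.40, 5.58 and 5.94. The 72 h arrays were the lowest of all 30. From 7.77 ± 0.17 at 12 h D to F to 5.64 ± 0.28 at 72 h (SD, n = 3 each), Mt4 differed by -2.13 on the log2 scale, a 4.38-fold lower intensity. The highest array of set 2, at 7.96, was below the lowest of set 1, at 8.91. If the letters are pooled by time, the change from 8 h to 24 h has the opposite sign, at -0.28, because 3 arrays of set 2 then enter the 24 h mean.

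**Figure D1:**
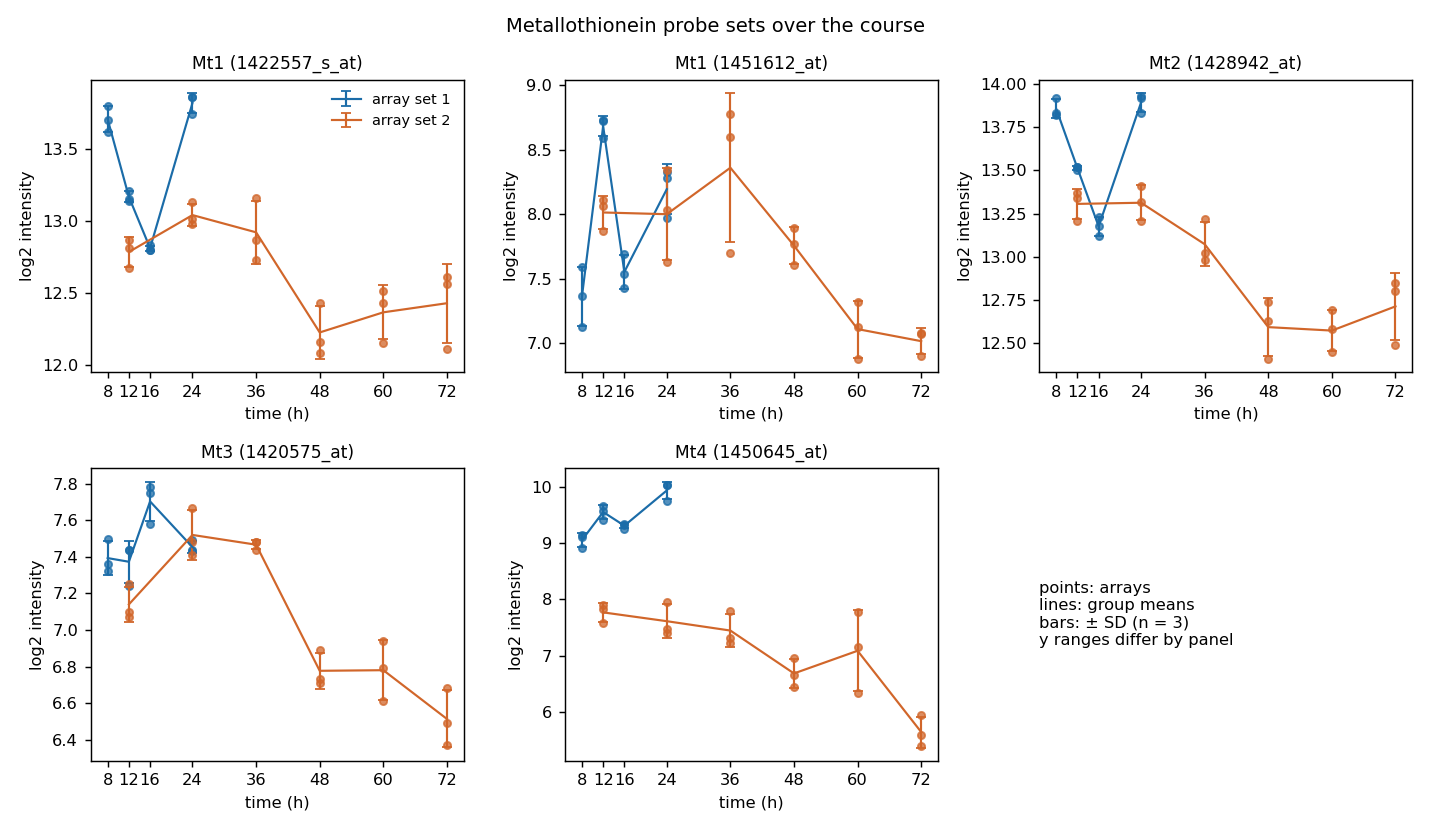
Log2 intensity of the 5 metallothionein probe sets (vertical axes, ranges differ by panel) against time in hours, with 1 point per array, lines through the group means and bars of ± SD (n = 3), blue for array set 1 and orange for set 2. For Mt4 every blue point, from 8.91 up, lies above every orange point, up to 7.96, while for Mt1 and Mt2 the blue line dips to 16 h and returns at 24 h.

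Mt1 and Mt2, the widely expressed pair, fell from 8 h to 16 h and were back near their 8 h level at 24 h in array set 1. On the Mt1 probe set with the highest mean (1422557_s_at), the 8 h arrays read 13.70, 13.62 and 13.80 and the 12 h arrays A to C 13.14, 13.21 and 13.15. The 16 h arrays read 12.80, 12.83 and 12.80, and the 24 h arrays A to C 13.86, 13.74 and 13.86. The 12 h and 16 h arrays lay below all 8 h arrays, and the 24 h arrays overlapped those of 8 h. Mt1 fell by 0.54 from 8 h to 12 h A to C (SE 0.12, limma adjusted p = 0.0018), where 19.5% of all genes were called at an adjusted p under 0.05. From 12 h A to C to 16 h it fell by 0.35 (adjusted p = 0.031), beside 21.9% of all genes, and this call was lost when any 1 of the 6 arrays was left out (adjusted p 0.062 to 0.090) or the letters were pooled (-0.16, adjusted p = 0.54). From 16 h to 24 h A to C Mt1 rose by 1.01, or 2.01-fold (adjusted p = 3.2e-07), beside 34.4% of all genes.

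Mt2 followed the same steps on its single probe set (1428942_at). Its arrays read 13.83, 13.82 and 13.92 at 8 h, 13.50, 13.52 and 13.52 at 12 h A to C, 13.18, 13.12 and 13.23 at 16 h and 13.93, 13.83 and 13.92 at 24 h A to C. No 12 h or 16 h array reached the lowest 8 h array, and the 24 h arrays overlapped the 8 h arrays. It fell by 0.34 in each of the first 2 steps (adjusted p = 0.0081 and 0.0077) and rose by 0.71 from 16 h to 24 h A to C (adjusted p = 8.9e-07). The call at 12 h was lost with array set added as a blocking term (-0.25, adjusted p = 0.1), and that at 16 h with the letters pooled by time (-0.23, adjusted p = 0.19). Between 8 h and 24 h A to C the differences were 0.11 for Mt1 (95% confidence interval -0.13 to 0.36, adjusted p = 0.46) and 0.04 for Mt2 (-0.15 to 0.22, adjusted p = 0.77). In that comparison 39.3% of all genes were called, 23.5% as higher and 15.8% as lower.

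In array set 2 the pair stepped down between 36 h and 48 h. Mt1 read 12.67, 12.81 and 12.87 at 12 h D to F, 13.01, 13.13 and 12.98 at 24 h D to F, and 12.87, 13.16 and 12.73 at 36 h. It read 12.08, 12.16 and 12.43 at 48 h, 12.51, 12.43 and 12.15 at 60 h, and 12.11, 12.56 and 12.61 at 72 h. No array from 48 h on reached the lowest of the earlier set 2 arrays, at 12.67. The step from 36 h to 48 h was -0.70 for Mt1 (adjusted p = 0.00012) and -0.48 for Mt2 (adjusted p = 0.00035), beside 22.1% of all genes called. Mt2 lay between 12.98 and 13.41 on the 9 arrays up to 36 h and between 12.41 and 12.85 on the 9 later ones. On these probe sets neither gene changed detectably from 48 h to 60 h, where 23.2% of genes were called (adjusted p = 0.44 for Mt1 and 0.91 for Mt2), or from 60 h to 72 h, where 11.2% were. From 24 h D to F to 36 h, with 13.6% of genes called, the differences were -0.12 for Mt1 and -0.24 for Mt2 (adjusted p = 0.58 and 0.076). That of Mt2 passed without 36 h array B (-0.31, adjusted p = 0.041) and with arrays centred on their medians (-0.25, adjusted p = 0.049). Against all letters of 24 h, Mt2 at 36 h differed by -0.33 with array set added as a blocking term (adjusted p = 0.019). With the letters pooled it differed by -0.53 (adjusted p = 0.0064), where arrays of set 1 enter the 24 h mean, so that this value is not a change within set 2.

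From 12 h D to F to 72 h, the longest span within a set, Mt1 fell by 0.36 (SE 0.12, adjusted p = 0.011) and Mt2 by 0.60 (SE 0.09, adjusted p = 2.6e-06). There 60.6% of all genes were called, 26.2% as higher and 34.5% as lower, so that calls were common in this comparison. The Mt1 call rested on array A of 72 h, the lowest of its group: without it the difference was -0.20 (adjusted p = 0.14).

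The other Mt1 probe set (1451612_at) went its own way at 12 h. It read 7.59, 7.13 and 7.37 at 8 h and 8.73, 8.72 and 8.59 at 12 h A to C, so all 12 h arrays were higher. In the fit of all 34945 probe sets this was a rise of 1.32 (SE 0.20, adjusted p = 9.7e-05), against the fall of 0.54 on 1422557_s_at, and 14.1% of all probe sets were called. It then read 7.69, 7.54 and 7.43 at 16 h and 8.33, 7.97 and 8.28 at 24 h A to C, which left a rise of 0.83 over 8 h (adjusted p = 0.0019, with 31.5% of probe sets called). From 48 h (7.61, 7.89 and 7.77) to 60 h (7.32, 7.13 and 6.88) it fell by 0.65 with no overlap (adjusted p = 0.023, with 18.4% of probe sets called), a step at which 1422557_s_at differed by 0.14. In set 2 it fell by 1.00 from 12 h D to F to 72 h (adjusted p = 0.00013, with 53.5% called), in the direction of 1422557_s_at. The direction of Mt1 from 8 h to 12 h and from 48 h to 60 h thus depends on the probe set, and a probe set with the suffix _s_at can match several transcripts.

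Mt3, the metallothionein best known from neurons, moved little up to 36 h and then fell. In set 1 it ranged from 7.24 to 7.78 over 12 arrays, and its 3 arrays at 16 h, 7.78, 7.58 and 7.75, were the highest. It rose by 0.33 from 12 h A to C to 16 h (adjusted p = 0.0093; 0.068 without 12 h array A) and fell by 0.25 to 24 h A to C (adjusted p = 0.032; up to 0.12, and lost, without array A or C of either time, and lost with the letters pooled or the array set as a block). From 8 h to 24 h A to C the difference was 0.06 (95% confidence interval -0.13 to 0.24, adjusted p = 0.64). In set 2 it rose by 0.38 from 12 h D to F to 24 h D to F (adjusted p = 0.0019), where 30.8% of all genes were called and Mt1, at 0.26 (adjusted p = 0.097), and Mt2, at 0.00 (adjusted p = 0.98), were not. On the D to F arrays Mt1 passed in a fit of the compared groups alone (adjusted p = 0.033). Other fits set all letters of 24 h against all of 12 h, so their values mix the changes in A to C and D to F. There Mt1 differed by 0.46 (adjusted p = 0.00024 with array set added as a blocking term, 0.021 with the letters pooled). Mt2 differed there by 0.19 (adjusted p = 0.041 with the block, 0.19 with the letters pooled).

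Between 36 h and 48 h Mt3 dropped from 7.48, 7.48 and 7.44 to 6.89, 6.73 and 6.71. The groups did not overlap, and the fall of 0.69 (adjusted p = 4.9e-06) was of the size of that of Mt1. At 60 h it read 6.79, 6.61 and 6.94 and at 72 h 6.49, 6.68 and 6.37, a difference of -0.27 that missed the threshold (adjusted p = 0.055) but passed without 60 h array B or 72 h array B, with arrays centred on their medians (adjusted p = 0.048) and with dim genes left out (adjusted p = 0.039). From 12 h D to F to 72 h Mt3 fell by 0.62 (SE 0.09, adjusted p = 1.4e-06). All 3 tested metallothioneins were thus lower at 72 h than at 12 h D to F, where 60.6% of all genes were called, 34.5% as lower. On the probe sets used for the genes, all 3 had their largest step of set 2 between 36 h and 48 h. The other Mt1 probe set (1451612_at) fell by 0.60 at that step and by 0.65 from 48 h to 60 h.

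**Figure D2:**
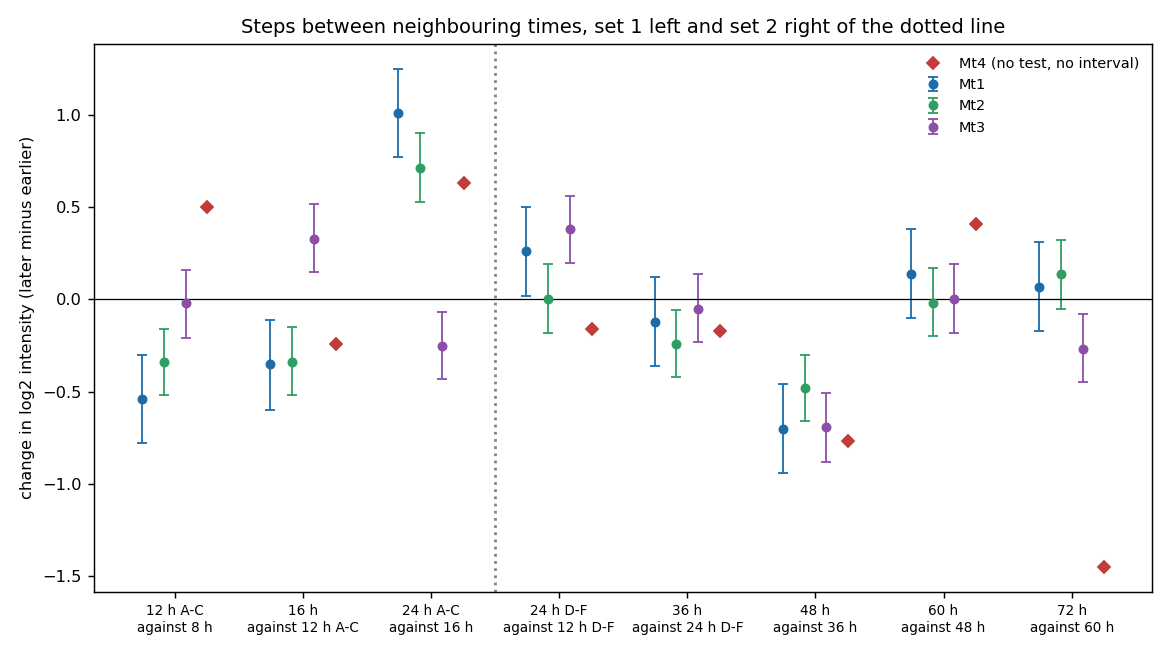
Change in log2 intensity between neighbouring times (vertical axis) for Mt1, Mt2 and Mt3 with 95% confidence intervals of the fit and for Mt4 without one, set 1 to the left of the dotted line and set 2 to the right. The 36 h to 48 h step lies below 0 for all 4 genes, from -0.77 for Mt4 to -0.48 for Mt2, and the 16 h to 24 h step is 1.01 for Mt1 and 0.71 for Mt2.

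The letters at 12 h and 24 h allow the array sets to be compared at the same labelled time and treatment. For Mt4 the D to F arrays, 7.58 to 7.90 at 12 h and 7.40 to 7.96 at 24 h, lay far below the A to C arrays, 9.42 to 9.67 and 9.76 to 10.03. The differences were -1.79 at 12 h (3.45-fold lower) and -2.32 at 24 h (5-fold lower). Since Mt4 was chosen for a fall that spans both sets, these differences are not independent of that choice and carry no test. Among all 18193 genes, 8 were as low or lower than Mt4 in the 12 h comparison, Mt4 included, and 4 in the 24 h comparison, where the central 90% of genes lay between -0.57 and 0.51 and between -0.53 and 0.43. The difference between letters at a matched time was thus close in size to the whole difference of -2.13 from 12 h D to F to 72 h within set 2.

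On the D to F arrays Mt1 was lower at both times, by 0.38 at 12 h (adjusted p = 0.011) and by 0.78 at 24 h (adjusted p = 1.2e-05), with no overlap between the letters. The 12 h call was lost without 12 h array D (-0.33, adjusted p = 0.057). Mt2 fell short of the threshold at 12 h (-0.21, adjusted p = 0.07) and was lower by 0.58 at 24 h (adjusted p = 1.7e-05). Mt3 differed by -0.23 at 12 h (adjusted p = 0.04), with overlapping arrays and a call that was lost without 12 h array B, C, D or E, and by 0.06 at 24 h (adjusted p = 0.64). Of all genes, 39% were called between letters at 12 h, 17.2% with D to F above and 21.7% with D to F below, and 33.8% at 24 h, 13.3% above and 20.4% below. The other Mt1 probe set was lower by 0.67 at 12 h (adjusted p = 0.01, with 32.8% of probe sets called) and differed by -0.19 at 24 h (adjusted p = 0.52, with 28.8% called).

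The change from 12 h to 24 h can also be set side by side in the 2 groups of letters. Mt2 rose by 0.38 in A to C and moved by 0.00 in D to F, a difference of -0.37 (SE 0.13, adjusted p = 0.039), beside 19.1% of all genes called for this difference. For Mt1 the changes were 0.65 and 0.26 (difference -0.40, adjusted p = 0.1), on its other probe set -0.48 and -0.01 (difference 0.47, adjusted p = 0.3), and for Mt3 0.08 and 0.38 (difference 0.30, adjusted p = 0.11). This comparison was added after the data were seen. Spike-in controls, the B2 control and markers of other cell types also differed between the letters. At 12 h, 11 of 17 visceral endoderm markers were higher on the D to F arrays and 0 were lower, with list means of 6.64 to 6.71 for A to C and 7.21 to 7.26 for D to F. At 24 h, 8 were higher and 1 was lower, with list means of 6.86 to 6.93 and 7.27 to 7.34. Of 15 neural and glial markers, 6 were higher and 1 was lower at 12 h, and 5 were higher and 1 was lower at 24 h. The part of these differences in the metallothionein values was not tested.

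**Figure D3:**
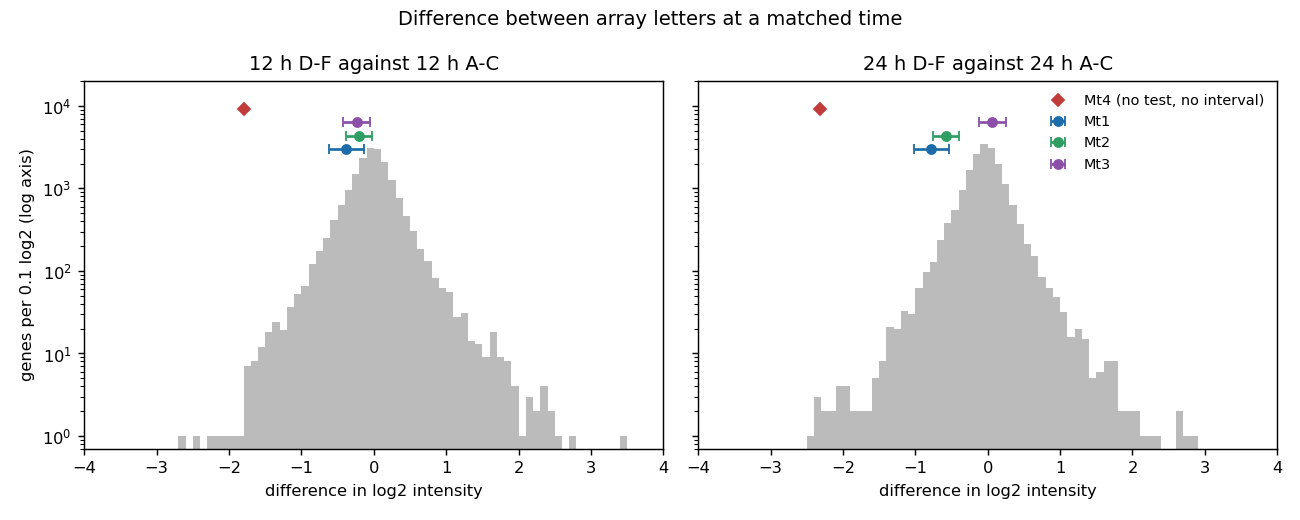
Number of genes (vertical log axis, bins of 0.1) by difference in log2 intensity between arrays D to F and A to C at 12 h and at 24 h, with the metallothioneins marked above the bars, Mt1, Mt2 and Mt3 with 95% confidence intervals. Mt4, at -1.79 and -2.32, lies at the left edge of both distributions, while Mt3 lies at -0.23 and 0.06.

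Over the 10 groups, the order of mean levels differed by gene. Mt4 was highest at 24 h A to C (9.94), followed by 12 h A to C (9.56), 16 h (9.31), 8 h (9.05), 12 h D to F (7.77), 24 h D to F (7.62), 36 h (7.45), 60 h (7.08), 48 h (6.68) and 72 h (5.64), a span of 4.30. The arrays of 12 h D to F, 24 h D to F and 36 h overlapped, as did those of 60 h with each of its neighbours in the order, whereas 72 h overlapped no group. Mt1 spanned 1.60, from 13.82 at 24 h A to C to 12.22 at 48 h, and 24 h A to C and 8 h overlapped at the top, as 48 h, 60 h and 72 h did at the bottom. Mt2 spanned 1.32, with the same groups overlapping at both ends. Mt3 spanned 1.19, from 7.70 at 16 h to 6.51 at 72 h. Its next highest groups, between 7.37 and 7.52, overlapped one another. At the ends, the 16 h arrays overlapped those of 24 h D to F, and the 72 h arrays those of 60 h.

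Of the regulators known to act on metallothionein genes, none moved by as much as 1 on the log2 scale in the 2 main comparisons. Of the 8 measured, 0 rose and 3 fell from 8 h to 24 h A to C, and 2 rose and 4 fell from 12 h D to F to 72 h. In these comparisons 39.3% and 60.6% of all genes were called. Mtf1, the metal-sensing activator, fell by 0.15 and by 0.23. Usf1, an E-box binding factor, fell by 0.22 and by 0.18, and its partner Usf2 differed by 0.03 and fell by 0.14. Sp1, a GC box factor, differed by -0.04 and fell by 0.29. Stat3, which relays cytokine signals, fell by 0.33 in the first comparison and rose by 0.57 in the other. Keap1, the repressor of Nfe2l2, differed by 0.11 and rose by 0.35. Nfe2l2, the antioxidant response factor, differed by 0.05 and -0.01, and Nr3c1, the glucocorticoid receptor, by 0.29 and -0.18, neither past the threshold. The list's median change was -0.01 and -0.16, beside -0.02 and -0.09 for all genes.

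At the step where Mt1, Mt2 and Mt3 fell together, from 36 h to 48 h, Mtf1 differed by -0.05 (adjusted p = 0.62). Among the 8 regulators 1 rose and 2 fell there, with 22.1% of all genes called. At the step from 16 h to 24 h A to C, where Mt1 and Mt2 rose, Mtf1 fell by 0.17 (adjusted p = 0.018) and Keap1 rose by 0.54 (adjusted p = 5e-07). In all, 1 of the 8 regulators rose and 3 fell at that step, with 34.4% of all genes called. Slc30a1, the plasma membrane zinc exporter that is itself a textbook Mtf1 target, differed by -0.05 at that step (adjusted p = 0.68) and by -0.13 from 36 h to 48 h (adjusted p = 0.32). It fell by 0.24 from 8 h to 24 h A to C, where Mt1 on 1422557_s_at and Mt2 did not differ detectably. The other Mt1 probe set (1451612_at) rose by 0.83 in that comparison (limma adjusted p = 0.0019). The part of Mtf1 or of zinc in the metallothionein steps was not tested.

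The lists of zinc and copper genes held calls in both directions. Of all genes, 39.3% were called from 8 h to 24 h A to C and 60.6% from 12 h D to F to 72 h. The shares called were 40% and 60% of the zinc exporters, 50% and 64.3% of the zinc importers and 36.4% and 81.8% of the copper genes. Of 10 zinc exporters, 2 rose and 2 fell from 8 h to 24 h A to C, and 3 rose and 3 fell from 12 h D to F to 72 h. Slc30a4 rose by 0.78 and 0.70 in the 2 comparisons and Slc30a2 fell by 0.88 and by 0.86. Of 14 zinc importers, 3 rose and 4 fell, and 7 rose and 2 fell. Among these, Slc39a6 rose by 0.28 and 1.22, and Slc39a14, which also carries iron and manganese, fell by 0.81 and by 0.48, while Slc39a8 fell by 0.86 in the first comparison and differed by -0.05 in the other. Of 11 copper genes, 3 rose and 1 fell, and 5 rose and 4 fell. Atp7a, the copper-exporting ATPase, rose by 0.47 and 1.32.

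Genes that answer to the other known inducers of metallothioneins were split as well. Of 14 measured oxidative stress genes, 2 rose and 3 fell from 8 h to 24 h A to C, and 3 rose and 8 fell from 12 h D to F to 72 h. Nqo1, a quinone reductase, fell by 0.91, Gsr, glutathione reductase, by 0.86, and Gclc, which starts glutathione synthesis, by 0.75 in the later comparison, while Slc7a11, the cystine importer, rose by 0.86 in the earlier one. Of 9 glucocorticoid targets, 3 rose and 3 fell, and 4 rose and 5 fell. Zbtb16 rose by 1.97 and 2.62 and Tsc22d3 by 0.98 and 1.44, while Sgk1 fell by 0.76 and by 0.86. The shares called in these lists are read against the 39.3% and 60.6% of all genes called in the same comparisons.

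**Figure D4:**
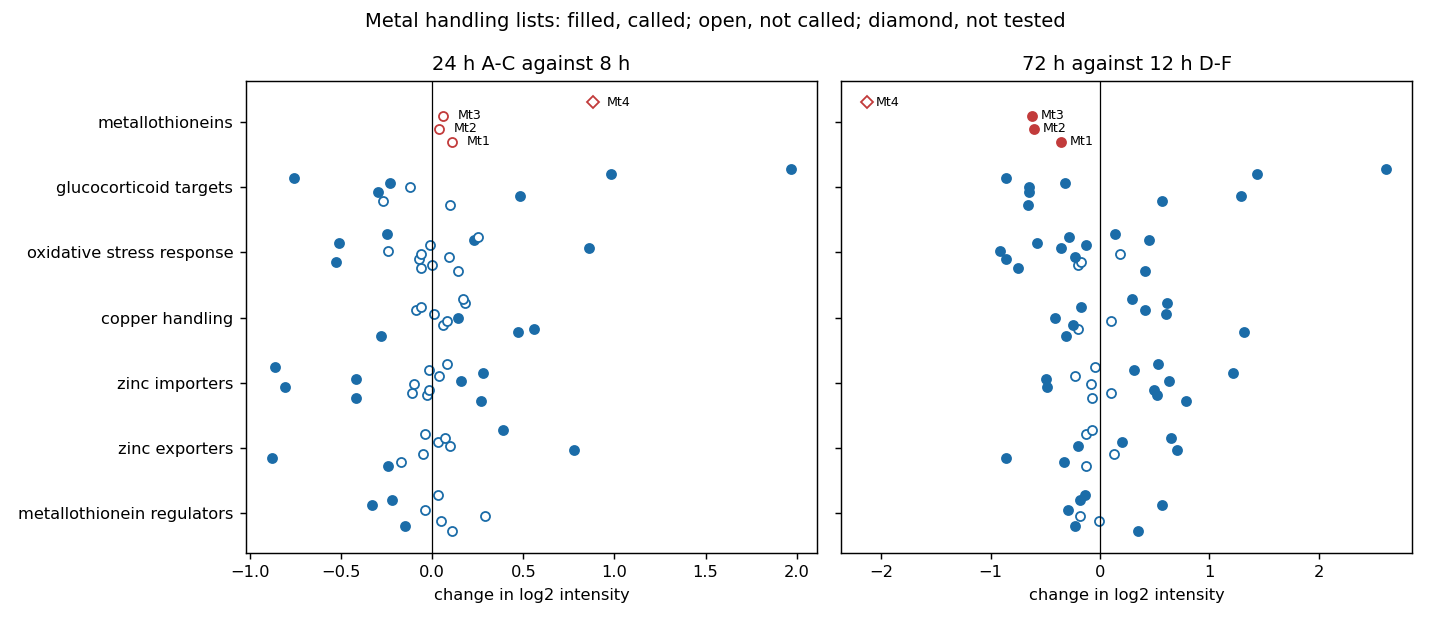
Change in log2 intensity (horizontal axis) for each measured gene of 6 lists and for the 4 metallothioneins, from 8 h to 24 h A to C and from 12 h D to F to 72 h; filled points passed the test, open circles did not, and the open diamond, Mt4, was not tested. Mt1, Mt2 and Mt3 lie near 0 on the left and between -0.62 and -0.36 on the right.

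Among the chromosome neighbours of the cluster, those nearest to it also fell in set 2. Of 11 measured, 2 rose and 2 fell from 8 h to 24 h A to C, and 3 rose and 7 fell from 12 h D to F to 72 h, with medians of -0.10 and -0.36, beside -0.02 and -0.09 for all genes. Of all genes, 39.3% were called in the first comparison and 60.6% in the other, 34.5% as lower. On the Mt4 side, Bbs2, a gene of the ciliary BBSome, fell by 0.65, Ogfod1 by 0.46, Nudt21, a polyadenylation factor, by 0.21 and Gnao1, a G protein subunit, by 0.36. On the Mt1 side, Nup93, a nuclear pore protein, fell by 0.48, Slc12a3, a sodium chloride cotransporter, by 0.40, and Herpud1, of the endoplasmic reticulum stress response, by 0.47. Nlrc5 differed by -0.07, and farther out Cpne2 rose by 1.08, Rspry1 by 0.68 and Arl2bp by 0.60. From 8 h to 24 h A to C, Ogfod1 and Nup93 fell by 0.24 and by 0.19, Rspry1 and Arl2bp rose by 0.41 and 0.46, and the other 7 did not pass (Gnao1 -0.21, Nudt21 0.02, Bbs2 -0.17, Slc12a3 -0.13, Herpud1 0.00, Nlrc5 -0.10 and Cpne2 0.20). The difference of Mt4 in set 2, -2.13, was larger than that of any measured neighbour, and these values were not tested against one another.

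**Figure D5:**
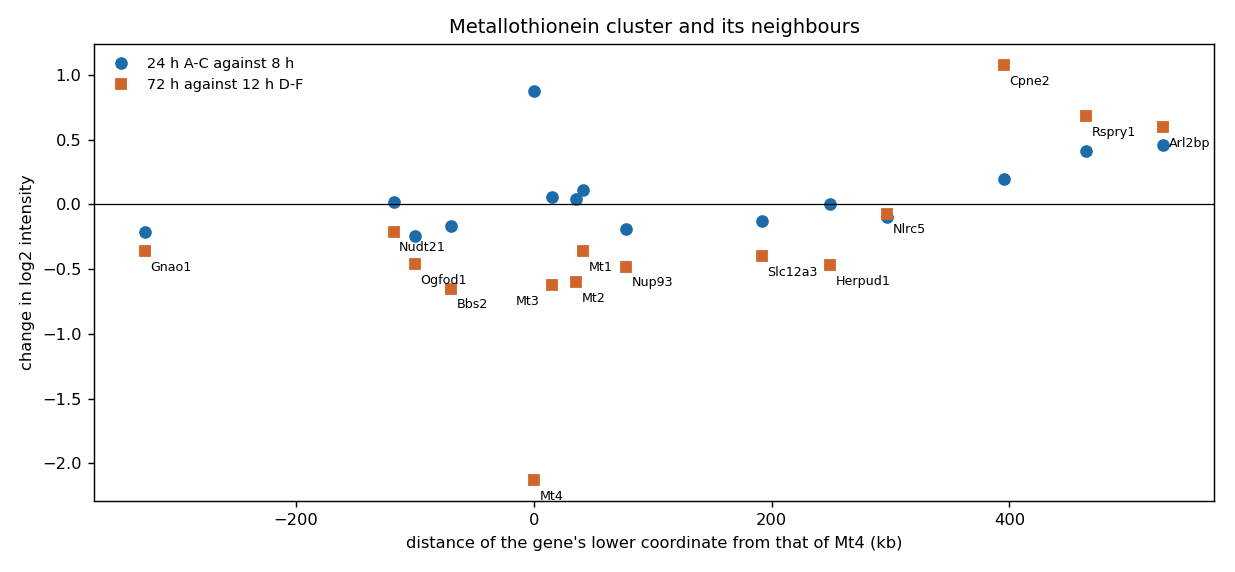
Change in log2 intensity (vertical axis) of the metallothioneins and their measured neighbours against the distance in kb of the lower coordinate of each gene from that of Mt4 (horizontal axis), blue circles for 24 h A to C against 8 h and orange squares for 72 h against 12 h D to F. From Gnao1, at -327.1 kb, to Herpud1, at 249.2 kb, all orange squares lie below 0.

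The genes most like each member over the 10 group means were found by Pearson correlation among 4111 genes with a span of at least 1. These correlations rest on 10 means that share the array sets, so they describe the pattern only. The genes were picked by these same means, so steps and letter differences shared with a member follow in part from that choice. Mt1 was most like Mt2 (0.971), then Unc5cl (0.938), Tmem14a (0.935), D630023F18Rik (0.922) and Blzf1 (0.915). Mt2 was most like Mt1 and Blzf1 (both 0.971), Stc2 (0.969), Trib3 (0.963) and Adm2 (0.962). The last 3 showed the same dip at 16 h and return at 24 h A to C: within set 1, Trib3 read 10.60 at 8 h, 9.17 at 16 h and 10.86 at 24 h A to C, and Stc2 10.47, 9.66 and 10.68. Between the letters at 24 h, Trib3 differed by -1.84 and Stc2 by -1.45. Mt3 was most like Cpn1 (0.972), Pecr (0.959), Usp44 (0.959), Actn3 (0.957) and Klhl8 (0.955).

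For Mt4 the most similar were Gm128 (0.974), Pcsk1 (0.970), Mapk13 (0.969), Phf7 (0.968) and Tmem30b (0.965). All 5 read below A to C on the D to F arrays at both matched times. This follows in part from the choice of these 5 genes, since those groups were among the means correlated with Mt4. Their letter differences ranged from -1.20 to -0.33 at 12 h and from -1.23 to -0.58 at 24 h, smaller than those of Mt4. Among the members themselves, Mt1 and Mt2 were the closest pair, and the correlations of the others with each other lay between 0.679 (Mt1 with Mt3) and 0.835 (Mt2 with Mt4).

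Markers of stratified epithelium, the tissue in which Mt4 is best known, were also read. Of 14 measured genes of stratified epithelium, 0 rose and 3 fell from 8 h to 24 h A to C, where Mt4 was higher by 0.88, and 2 rose and 3 fell from 12 h D to F to 72 h. The shares over all genes were 23.5% higher and 15.8% lower in the first comparison, and 26.2% higher and 34.5% lower in the other. Their mean level lay between 6.39 and 6.79 on all 30 arrays. The group means of Trp63, the master factor of that lineage, stayed between 4.73 and 5.01, those of Krt5 between 6.02 and 6.18 and those of Krt14 between 5.15 and 5.54. Other genes of the list were higher or moved more. Their group means ran from 8.60 to 10.71 for Sfn, 9.23 to 10.27 for Perp, 5.94 to 9.87 for Sprr1a and 4.82 to 6.52 for Krtdap. No marker is listed at 0, since log2 intensities of an array have no true zero.

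Markers of other cell types are given beside these changes, and 26.2% of all genes were called as higher and 34.5% as lower from 12 h D to F to 72 h. From 12 h D to F to 72 h, 18 of 20 embryonic fibroblast markers rose and 0 fell, with a median change of 2.05, and 17 of 20 pluripotency genes fell. The mean of the fibroblast list was 8.82 to 9.43 on the 36 h arrays and 9.97 to 11.09 on the 48 h arrays, the step at which Mt1, Mt2 and Mt3 fell. In the span from 12 h D to F to 72 h, 9 of 15 neural and glial markers rose and 2 fell, and 8 of 17 visceral endoderm markers rose and 3 fell. From 8 h to 24 h A to C, 23.5% of all genes were called as higher and 15.8% as lower. In that comparison 5 of 20 fibroblast markers rose and 0 fell, which at 25% is near the share of all genes called as higher. There 16 of 20 pluripotency genes fell and 0 rose. Among visceral endoderm markers 6 of 17 rose and 1 fell, and among neural and glial markers 6 of 15 rose and 1 fell. The part of the cell mixture in the metallothionein changes was not tested.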

How the data were processed

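Per the labels, total RNA (200 ng, biotin label) was hybridised to 1 array per sample. The deposited values are on a log2 intensity scale that the authors had already normalised across arrays; the method is not given in the sources used here, and the submitters' processing notes name limma 3.8.3. Array medians lay between 6.34 and 6.39, and none of 48 pairs of arrays within a time held identical values. Intensities give no sequencing depth, so precision is limited by how many arrays each group has.

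Of 45101 probe sets, 64 controls, 9160 without a gene symbol and 932 that list more than 1 were removed. For each of 18193 genes the probe set of highest mean was used (9010 genes had over 1). Genes were fitted with limma 3.58.1 in R 4.3.3, in 1 model of 10 groups (8 times, letters A to C and D to F apart at 12 h and 24 h), empirical Bayes, Benjamini-Hochberg adjustment over all genes, two-sided, threshold 0.05. The other Mt1 probe set comes from the same fit of all 34945 probe sets. The fit was tested on simulated data. A test of Mt4 between letters had been planned and is not given. Alternatives pooled the letters, added blocks, changed the scaling, filter or probe set rule, and left out arrays. With the letters pooled or the array set as a block, 12 h and 24 h hold letters A to F. Their comparisons are then not limited to either group of letters.

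The members, gene lists and tests were chosen with earlier results of these data known. The text names all members, regulators and neighbours, up to 4 genes of each other list by size of change, and the 5 genes most like each member. Slc30a1 is named outside that rule and was chosen after its values were seen, as were Trp63, Krt5, Krt14, Sfn, Perp, Sprr1a, Krtdap and Pou5f1. List genes that lacked a probe set with a single symbol were not measured here. Same-lettered arrays of 36 h and 48 h deviated together (correlations 0.15 to 0.18 in all 3 pairs). Those of 12 h and 24 h D to F did so more weakly (0.07 to 0.14), and nothing in the labels says that letters pair arrays.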

Additional observations from a re-analysis of the deposited data

Results flagged for a closer look

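Array F of 24 h stood apart for Mt3. It read 7.67 where the other 5 arrays of 24 h read 7.41 to 7.49, and the gap was 0.678 of the group's range, above Dixon's limit for 6 arrays. In arrays of a single population, chance alone puts about 1 in 20 groups past that limit. These 6 arrays come from both array sets, so that share need not hold here. All 5 probe sets were scanned in this way, at 12 h and at 24 h. Without array F of 24 h the difference of Mt3 between letters at 24 h is -0.01 in place of 0.06.

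The change of Mt2 from 12 h to 24 h differed between the letters by -0.37 (limma adjusted p = 0.039). All 3 arrays of 24 h A to C lay above all of 12 h A to C, while the arrays of D to F overlapped between the times.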

How the results depend on the processing

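Of 800 alternative values for the changes of single members 713 kept direction and side of the threshold and 41 changed sign. Of 200 alternative counts of called genes 175 stayed within 1.5 times. With letters pooled by time, Mt4 turned: -0.39 (12 h against 8 h), 0.65 (16 h against 12 h), -0.54 (24 h against 16 h), -0.28 (24 h against 8 h) and 0.11 (24 h against 12 h), with -3.02 for 72 h against 12 h; 24 h against 8 h became -0.27 for Mt1 and -0.25 for Mt2. With the array set as a block, values were -0.06 (Mt2, 24 h against 8 h), 0.11 (Mt4, 24 h against 12 h), 0.03 (Mt3, 36 h against 24 h) and -0.26 (Mt1, 72 h against 12 h, adjusted p = 0.066). Centring on medians gave Mt2 -0.02 (24 h A to C against 8 h) and -0.05 (24 h against 12 h, D to F), and Mt3 -0.01 (60 h against 48 h) and -0.20 (letters at 12 h). Quantile scaling gave Mt3 -0.03 (24 h A to C against 8 h), -0.01 (60 h against 48 h) and -0.19 (letters at 12 h), and Mt2 0.01 (60 h against 48 h) and -0.25 (letters at 12 h, adjusted p = 0.025). In a fit of the compared groups alone, Mt2 between letters at 12 h passed at -0.21 (adjusted p = 0.035), and Mt1 passed at 0.26 for 24 h against 12 h D to F.

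The mean of its probe sets gave Mt1 0.39 (12 h against 8 h), 0.47 (24 h against 8 h, called), 0.12 (36 h against 24 h), -0.25 (60 h against 48 h) and -0.01 (72 h against 60 h). Without _s_at probe sets these were 1.32 (called), 0.83 (called), 0.36, -0.65 (called) and -0.09, with -0.01 (24 h against 12 h) and -0.19 (letters at 24 h). The cause was not tested.

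Counts of called genes moved with pooled letters (901 for 12 h against 8 h, 1821 for 48 h against 36 h, 1827 for 60 h against 48 h, 518 for 72 h against 60 h). The array set block gave 1923 and 1355 for the first and last of these. In fits of the compared groups alone they were 1388 (36 h against 24 h), 1953 (48 h against 36 h), 813 (60 h against 48 h) and 131 (72 h against 60 h). More features tested gave 10098 (24 h against 16 h), 11022 (24 h against 8 h), 8887 (24 h against 12 h), 6437 (60 h against 48 h), 3165 (72 h against 60 h), 18680 (72 h against 12 h), 11472 and 10054 (letters).

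Leaving out 1 array gave 2357 to 3286 genes (12 h against 8 h), 1290 to 2067 (36 h against 24 h) and 1054 to 3068 (72 h against 60 h). Member ranges with a lost call or a change of sign were -0.37 to -0.33 (Mt1, 16 h against 12 h), 0.27 to 0.39 (Mt3, 16 h against 12 h), -0.31 to -0.21 (Mt3, 24 h against 16 h), -0.06 to 0.04 (Mt3, 12 h against 8 h), -0.04 to 0.06 (Mt2, 24 h against 12 h), -0.34 to 0.01 (Mt4) and -0.11 to 0.03 (Mt3, 36 h against 24 h), -0.08 to 0.09 (Mt3) and -0.11 to 0.05 (Mt2, 60 h against 48 h), -0.04 to 0.22 (Mt1, 72 h against 60 h), -0.44 to -0.20 (Mt1, 72 h against 12 h), -0.30 to -0.20 (Mt3) and -0.42 to -0.33 (Mt1, letters at 12 h) and -0.01 to 0.12 (Mt3, letters at 24 h). Calls were gained within -0.31 to -0.19 (Mt2, 36 h against 24 h) and -0.35 to -0.19 (Mt3, 72 h against 60 h).

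With the replicate letter as a block, 11012 genes were called for 72 h against 12 h D to F, and no call of a member changed. Other pairs of same-lettered arrays had correlations from -0.17 to 0.29.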
